A study of Mus musculus with 24 samples.

Results

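The receptor tyrosine kinases inhibited by PLX3397 and the growth factors that bind them were followed at the transcript level in mouse brain 5 days after traumatic brain injury (TBI). The set was taken by name, with earlier results of these data known, and holds the receptors Csf1r, Kit and Flt3 and the ligands Csf1, Il34, Kitl and Flt3l. These are 7 of the 36333 genes in the expression table, and all 7 were among the 17267 genes that reached a mean of 0.5 TPM and were tested. Levels are in TPM, which stands for transcript abundance divided by gene length and brought to the same total in each library. The methods add that the mapping software calls this unit CPM. Whether the deposited values were divided by gene length was not checked here, and every comparison of levels between genes rests on it.

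CSF1R, KIT and FLT3 belong to the same class of receptor tyrosine kinases as the PDGF receptors, and each dimerizes and phosphorylates itself once its ligand is bound. CSF1R keeps microglia and most macrophages alive and has 2 ligands, CSF1 and IL34. KIT binds stem cell factor, the product of Kitl, and is known from mast cells, blood progenitors, melanocytes and some neurons, whereas FLT3 binds the product of Flt3l and supports lymphoid progenitors and dendritic cells. In the adult brain IL34 comes largely from neurons and CSF1 largely from glia. PLX3397 blocks the kinase activity of these receptors, so the level of receptor mRNA is not itself a readout of the inhibition.

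RNA came from lesional and perilesional brain tissue of 24 male mice aged 12 to 16 weeks, labelled C57BL6N, with 1 library per mouse. TBI was inflicted by controlled cortical impact, and the injured mice received vehicle, PLX3397, Anakinra or PLX3397+Anakinra (n = 5 each). Another 4 mice were sham-operated without opening the skull, so that injury and bone surgery cannot be told apart in comparisons with sham. The methods list the sham group as given vehicle too, and below vehicle means the injured mice. PLX3397 was given in chow at 290 mg/kg from 90 min after the impact until day 5. Anakinra, which blocks the interleukin-1 receptor, was injected subcutaneously at 100 mg/kg at 5 min, 24 h, 48 h and 72 h. All mice were killed at the same time point, and no mouse received a drug without injury. The methods give the strain as C57BL/6JRj and an age range that ends earlier than that of the labels. The letter B stands only in the codes of vehicle mice, and if it marks a batch, that batch cannot be told apart from the vehicle group.

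Between 22160 and 23249 genes had a TPM above 0 in a library. The labels name cortex, whereas the methods describe cryosections that also held striatum, dorsal hippocampus and thalamus, and the summed TPM of 8 striatal markers lay between 1340 and 2206 in the 24 libraries. Of 15 microglia markers, 15 were higher in vehicle than in sham mice, with a median difference of 2.42 on the log2(TPM + 1) scale. Of 10 neuronal markers, 10 were lower, with a median of -0.65. Over all genes tested, 26.6% were higher and 27.7% lower in that comparison. Library totals are fixed by the TPM unit and read counts are not in the tables used here, so the depth per library is unknown. In bulk tissue, fewer cells of a type and less RNA per cell cannot be told apart.

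TBI separated the set. Csf1r and Csf1 rose to more than 3 times their sham level, Il34, Kit, Kitl and Flt3 fell by about 16 to 34%, and Flt3l did not pass the test. Relative to vehicle, Csf1r was the only member that passed the test with PLX3397, none passed with Anakinra alone, where Flt3l came closest (0.45, adjusted p 0.0968), and PLX3397+Anakinra lowered Csf1r and Csf1 and raised Il34. Every test below is a moderated comparison in limma on log2(TPM + 1) over all 24 libraries, with p-values adjusted over the 17267 genes, and a gene passed at an adjusted p below 0.05.

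**Figure D1:**
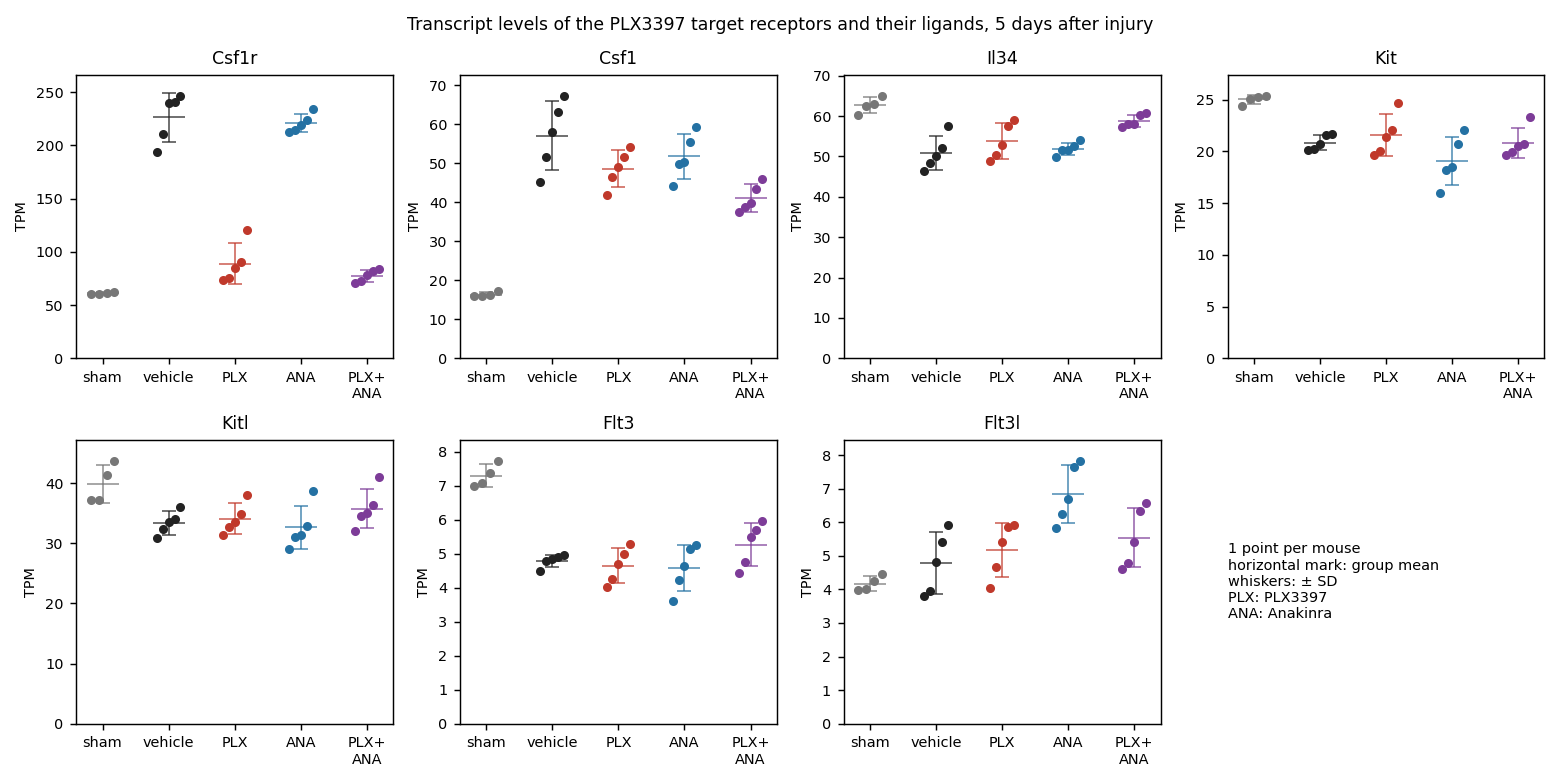
TPM of each gene (y axis, starting at 0) in each of 24 mice by group (x axis), with a horizontal mark for the group mean and whiskers for the SD (n = 4 sham, n = 5 in each other group; PLX is PLX3397 and ANA is Anakinra). Csf1r was 60.5 to 62.5 TPM in sham mice, 194 to 247 TPM with vehicle and 70.95 to 120 TPM in mice given PLX3397 alone or with Anakinra, while Kit, Kitl and Flt3 were lower in each injured group mean than in sham.

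Csf1r, the receptor of CSF1 and IL34 (chromosome 18, 61105572 to 61131139, plus strand, GRCm38.p6), had the highest mean level of the set, 138 TPM over the 24 mice, above 92.0% of the genes tested. Sham mice had 62.5, 60.8, 60.5 and 61.2 TPM. Vehicle mice had 211, 194, 239.9, 241 and 247 TPM. The lowest vehicle mouse, J17B, still had about 3 times the level of the highest sham mouse, and the groups did not overlap. Their difference was 1.86 (SE 0.10, adjusted p 3.75e-14), a ratio of mean TPM of 3.70.

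In mice given PLX3397, Csf1r was at 75.3, 120, 73.8, 90.5 and 85.2 TPM, and with PLX3397+Anakinra at 83.8, 78.1, 70.95, 82.1 and 72.6 TPM. All 10 were below the lowest vehicle mouse and above the highest sham mouse. PLX3397 mouse J02, at 120 TPM, stood furthest toward vehicle. With Anakinra alone, Csf1r was at 234, 215, 219, 213 and 224 TPM, within the range of the vehicle mice. The order of the group means was sham, PLX3397+Anakinra, PLX3397, Anakinra and vehicle, and the neighbouring pairs PLX3397+Anakinra and PLX3397 (adjusted p 0.753) and Anakinra and vehicle (adjusted p 0.921) did not pass the test.

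Relative to vehicle, Csf1r fell by 1.35 on the log2 scale with PLX3397 (95% CI -1.54 to -1.17, adjusted p 6.95e-10) and fell by 1.53 with PLX3397+Anakinra (95% CI -1.72 to -1.35, adjusted p 4.33e-11). The mean TPM was 60.7% and 65.8% lower. Of the mean TPM difference between vehicle and sham, 16.8% remained with PLX3397, 9.85% with PLX3397+Anakinra and 96.6% with Anakinra. Csf1r was still higher than in sham mice with PLX3397 (0.51, adjusted p 0.000111) and with PLX3397+Anakinra (0.33, adjusted p 0.00758). In GENCODE it overlaps Hmgxb3 on the opposite strand by 873 bases, and the library protocol describes no strand marking, so reads of the overlap cannot be assigned.

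The fall of Csf1r went along with that of microglia markers. With PLX3397, 15 of 15 microglia markers were lower than in vehicle (6.66% of all genes), with a median of -1.30 and a range of -1.74 to -0.61. The -1.35 of Csf1r had 7 markers below it and 8 above. With PLX3397+Anakinra, 15 of 15 were lower again (9.6% of all genes) with a median of -1.46, and 6 lay below the -1.53 of Csf1r and 9 above. The summed TPM of the 15 markers was 625 to 679 in sham, 3907 to 5498 with vehicle, 1804 to 2871 with PLX3397, 4432 to 4924 with Anakinra and 1535 to 1998 with PLX3397+Anakinra. Against sham, the Csf1r difference of 1.86 in vehicle mice was below the marker median of 2.42, with 6 markers below it and 9 above.

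**Figure D2:**
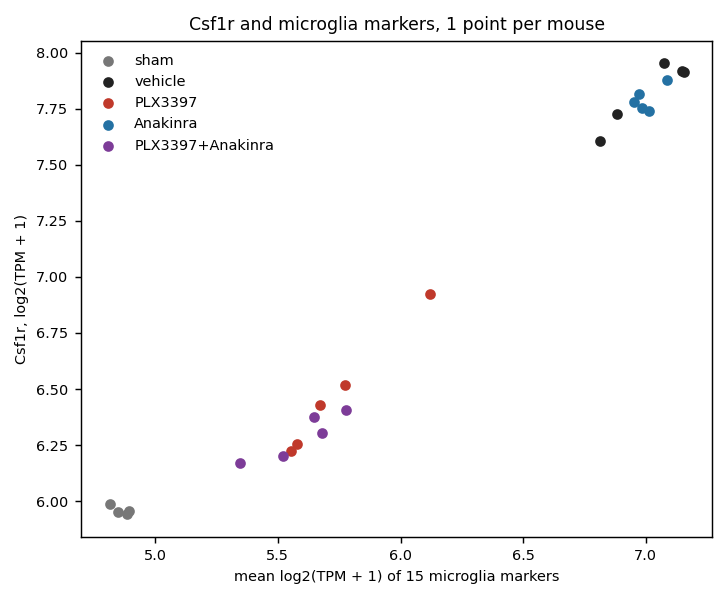
Csf1r as log2(TPM + 1) (y axis) against the mean log2(TPM + 1) of 15 microglia markers (x axis), with 1 point per mouse coloured by group. The marker means lay at 4.81 to 4.89 in sham, 5.35 to 6.12 in the groups given PLX3397 and 6.81 to 7.16 with vehicle or Anakinra, and Csf1r lay in the same order.

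Border macrophage markers fell as well, 8 of 9 with PLX3397 (median -1.26) and 8 of 9 with PLX3397+Anakinra (median -1.94). Over all genes tested, 6.66% and 9.6% were lower in these comparisons with vehicle. The 5 markers of red blood cells, which do not express Csf1r, were also lower in both groups, 5 of 5 each, with summed TPM of 1507 to 4406 with vehicle, 606 to 1072 with PLX3397 and 725 to 951 with PLX3397+Anakinra. Their part in the result was not tested. In sham mice the red blood cell sum was 2142 to 3195 and with Anakinra 2485 to 3292, and none of the 5 markers passed in vehicle against sham.

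Kit, the receptor of stem cell factor (chromosome 5, 75574987 to 75656722, plus strand), was at 21.3 TPM on average, above 54.6% of the genes tested. The sham mice had 24.4, 25.1, 25.2 and 25.4 TPM. The vehicle mice had 21.6, 21.7, 20.7, 20.2 and 20.1 TPM, all below the lowest sham mouse. The difference was -0.25 (SE 0.07, adjusted p 0.00476), or 16.7% less TPM.

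Kit stood at 22.1, 24.7, 21.4, 20.004 and 19.7 TPM with PLX3397, where J02 reached the sham range. It stood at 18.2, 18.5, 20.7, 15.9 and 22.02 TPM with Anakinra, and at 19.7, 20.7, 20.5, 23.3 and 19.9 TPM with PLX3397+Anakinra. Anakinra mouse J21 was the lowest of all 24 mice, and the 4 injured groups overlapped. None of the drug groups passed against vehicle, with 95% intervals of -0.10 to 0.18 for PLX3397, -0.27 to 0.01 for Anakinra and -0.15 to 0.14 for PLX3397+Anakinra. Of the ordered means, from Anakinra over PLX3397+Anakinra, vehicle and PLX3397 to sham, only the step from PLX3397 to sham passed (-0.21, adjusted p 0.0208), and it was lost without PLX3397 mouse J19 (adjusted p 0.0534) or J20 (adjusted p 0.0618).

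Mast cells, the best known KIT-bearing cells of blood origin, left little trace in these libraries. The 7 mast cell markers that were listed but not tested, among them Cpa3, Cma1 and Fcer1a, reached at most 1.25 TPM in any library, and each was at 0 in 4 to 21 of the 24 libraries. Cpa3, Cma1, Mcpt4, Tpsb2, Fcer1a and Ms4a2 had higher means with vehicle than in sham, at 0.0315 to 0.548 against 0 to 0.0853 TPM. Mrgprb2 was at 0.0116 against 0.0132 TPM. No test was made on these low values. Of the 2 tested, Hdc was higher in vehicle than in sham (0.56, adjusted p 0.0174), and Gata2 was at 0.06 (adjusted p 0.656). Markers of cortical interneurons were lower in vehicle than in sham for 8 of 10 genes (median -0.42), beside 27.7% of all genes. Their summed TPM was 1286 to 1743 against 1965 to 2148.5. The general neuronal markers fell as well, to a summed TPM of 4415 to 5262 with vehicle against 7326 to 7599 in sham. The part of either list in the lower Kit level was not tested.

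Flt3 (chromosome 5, 147330741 to 147400489, minus strand), the receptor of FLT3 ligand, had a mean of 5.23 TPM and lay above 28.1% of the genes tested. In sham mice Flt3 was at 7.07, 7.36, 7.005 and 7.73 TPM. The vehicle mice had 4.90, 4.77, 4.49, 4.85 and 4.95 TPM, a narrow range well below sham. The difference of -0.52 (SE 0.09, adjusted p 3e-05) corresponded to 34.3% less TPM and was the largest fall in the set.

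Flt3 was at 4.70, 5.29, 4.98, 4.02 and 4.25 TPM with PLX3397. With Anakinra it was at 5.14, 3.60, 4.23, 4.65 and 5.27 TPM, and with PLX3397+Anakinra at 4.44, 5.68, 5.50, 4.76 and 5.95 TPM. No injured mouse reached the lowest sham mouse, and the 4 injured groups overlapped one another. Against vehicle the 95% intervals were -0.22 to 0.13 for PLX3397, -0.24 to 0.11 for Anakinra and -0.07 to 0.28 for PLX3397+Anakinra. In the order Anakinra, PLX3397, vehicle, PLX3397+Anakinra and sham, only the last step passed (-0.41, adjusted p 0.00077).

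Dendritic cell markers did not follow Flt3. Of 9 markers, 5 could be tested, and 4 were higher and 1 lower in vehicle than in sham (26.6% and 27.7% of all genes). The summed TPM of the list was 17.9 to 20.3 in sham, 35.2 to 41.9 with vehicle and 15.6 to 27.2 in the groups given PLX3397, and the gene with the highest mean, Siglech at 12.6 TPM, is also a microglia marker. The 4 markers not tested, Clec9a, Xcr1, Cd209a and Ccr7, stayed at or below 1.30 TPM in all libraries.

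Csf1, the ligand of CSF1R that also circulates in plasma (chromosome 3, 107741048 to 107760469, minus strand), had a mean of 44.1 TPM. Its upstream sequence is shown because it was the only ligand whose level rose strongly after TBI, and the sequence upstream of Kit, which fell, is set beside it. Each line gives the 250 bases before the transcription start in RefSeq, GRCm38.p6, in the direction of the gene, for Csf1 chr3:107760470-107760719 on the minus strand and for Kit chr5:75574737-75574986 on the plus strand. Capitals mark matches on either strand to the NF-kB consensus, the GC box GGGCGG, the PU.1 core GAGGAA, the AP-1 motif TGANTCA or the TATA box TATAAA, and no matches overlapped.
Csf1: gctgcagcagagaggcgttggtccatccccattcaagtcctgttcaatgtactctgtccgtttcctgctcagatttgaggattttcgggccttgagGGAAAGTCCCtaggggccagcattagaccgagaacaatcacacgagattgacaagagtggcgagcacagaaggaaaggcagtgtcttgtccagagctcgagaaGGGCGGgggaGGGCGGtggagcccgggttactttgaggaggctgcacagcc
Kit: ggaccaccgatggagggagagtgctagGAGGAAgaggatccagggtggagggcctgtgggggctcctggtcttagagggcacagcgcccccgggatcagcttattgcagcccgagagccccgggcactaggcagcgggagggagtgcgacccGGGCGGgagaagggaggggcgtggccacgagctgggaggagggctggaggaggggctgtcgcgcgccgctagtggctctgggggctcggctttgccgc
The Csf1 stretch held 1 NF-kB match, on the opposite strand, and 2 GC boxes, and the Kit stretch held 1 PU.1 core and 1 GC box. Among 27025 promoters of the same length, 7.01% held an NF-kB match, 32.9% a GC box, 23.1% the PU.1 core, 6.87% the AP-1 letters and 12.97% the TATA box. Neither stretch held the E-box CANNTG or the STAT motif TTCNNNGAA, which 66.0% and 7.18% of promoters held. Of the other members with an upstream sequence, not shown here, Kitl, which also fell, held 1 NF-kB match and 3 GC boxes. Flt3 and Flt3l held 0 NF-kB matches. An NF-kB match was thus not particular to the gene that rose. All of these are matches of letters and no measure of binding.

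Sham mice had 16.2, 15.9, 16.1 and 17.3 TPM of Csf1, and the vehicle mice 51.7, 45.1, 67.4, 63.2 and 58.1 TPM. The groups were far apart, and the spread among vehicle mice, an SD of 8.91 TPM, was the widest of the 5 groups for Csf1. Vehicle mouse J17B was lowest in both Csf1 and Csf1r. The difference from sham was 1.73 (SE 0.10, adjusted p 1.35e-13), a ratio of mean TPM of 3.49.

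Csf1 was at 41.8, 54.2, 51.5, 46.4 and 49.1 TPM with PLX3397 and at 59.2, 50.3, 49.7, 44.3 and 55.4 TPM with Anakinra. With PLX3397+Anakinra it was at 46.1, 39.8, 38.7, 43.5 and 37.6 TPM. Only the highest mouse of the combination, J03, lay above the lowest vehicle mouse, and the means fell in the order vehicle, Anakinra, PLX3397, PLX3397+Anakinra and sham. No neighbouring pair among the 4 injured groups passed (adjusted p 0.572, 0.636 and 0.555 in that order).

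The combination differed from vehicle by -0.45 in Csf1 (95% CI -0.64 to -0.27, adjusted p 0.000783), or 27.9% less TPM. PLX3397 alone was at -0.22 (95% CI -0.41 to -0.03, adjusted p 0.137), and it passed when vehicle mouse J17B was left out (-0.30, adjusted p 0.0184). Of the mean TPM difference between vehicle and sham, 79.2% remained with PLX3397 and 60.8% with PLX3397+Anakinra, against 16.8% and 9.85% for Csf1r. Astrocyte markers were higher in vehicle than in sham for 7 of 8 genes (26.6% of all genes) and in PLX3397 than in sham for 8 of 8 (22.7% of all genes). Their summed TPM was 2288 to 2569 in sham, 4509 to 5688 with vehicle, 4563 to 5117 with PLX3397 and 4706 to 5089 with PLX3397+Anakinra. Their part in the Csf1 level was not tested.

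Il34, the second ligand of CSF1R (chromosome 8, 110741829 to 110805949, minus strand), had a mean of 55.3 TPM. The sham mice had 62.9, 65.1, 62.6 and 60.2 TPM, and the vehicle mice 57.6, 52.0, 48.4, 46.5 and 50.05 TPM. No vehicle mouse reached sham, and J01B came closest. The difference was -0.30 (SE 0.06, adjusted p 6.34e-05), or 18.8% less TPM.

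Il34 was at 59.0, 48.8, 57.6, 52.8 and 50.4 TPM with PLX3397, and at 51.5, 49.8, 52.5, 51.7 and 54.0 TPM with Anakinra. With PLX3397+Anakinra it was at 57.3, 60.2, 60.6, 58.1 and 57.9 TPM. The combination values were close together and high, overlapping vehicle only through J01B and overlapping sham through the lowest sham mouse. Against vehicle the combination was at 0.21 (95% CI 0.10 to 0.32, adjusted p 0.00623), and against sham at -0.09 (95% CI -0.20 to 0.02, adjusted p 0.212). PLX3397 alone was at 0.08 against vehicle (95% CI -0.03 to 0.18, adjusted p 0.417) and remained below sham (-0.22, adjusted p 0.00189). In the order vehicle, Anakinra, PLX3397, PLX3397+Anakinra and sham, no neighbouring pair passed (adjusted p 0.857, 0.672, 0.563 and 0.212).

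Neuronal markers moved the same way as Il34. Against sham, 10 of 10 were lower with vehicle (27.7% of all genes). Against vehicle, 4 of 10 were higher with PLX3397 (median 0.16; 3.23% of all genes) and 7 of 10 with PLX3397+Anakinra (median 0.22; 7.88% of all genes). Their summed TPM was 7326 to 7599 in sham, 4415 to 5262 with vehicle, 5057 to 5994 with PLX3397, 4648 to 5132 with Anakinra and 5414 to 5743 with PLX3397+Anakinra, and its part in the Il34 level was not tested. The antisense gene Gm15894 overlaps Il34 by 3979 bases, and its own mean was 0.484 TPM.

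Kitl, the gene of stem cell factor (chromosome 10, 100015615 to 100100416, plus strand), had a mean of 35.0 TPM, higher than its receptor. The sham mice had 37.2, 37.2, 43.7 and 41.3 TPM, and the vehicle mice 32.4, 33.5, 30.9, 36.0 and 34.1 TPM. The groups did not overlap, with vehicle mouse J19B nearest to sham. The difference was -0.25 (SE 0.08, adjusted p 0.00704), or 16.3% less TPM.

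Kitl was at 34.9, 31.4, 32.6, 38.0 and 33.6 TPM with PLX3397, at 29.1, 31.1, 32.9, 31.4 and 38.7 TPM with Anakinra, and at 34.5, 36.3, 32.1, 35.0 and 41.1 TPM with PLX3397+Anakinra. One mouse of each drug group (J19, J22 and J17) reached the sham range. Against vehicle the 95% intervals were -0.12 to 0.18, -0.18 to 0.11 and -0.05 to 0.24 in the same order of groups. From Anakinra over vehicle, PLX3397 and PLX3397+Anakinra to sham, no neighbouring pair passed (adjusted p 0.880, 0.856, 0.928 and 0.112), although PLX3397 was below sham (-0.22, adjusted p 0.0197). That call was lost without PLX3397 mouse J02 (adjusted p 0.0562) or without sham mouse J15 (adjusted p 0.0853) or J16 (adjusted p 0.0558), and the combination passed against sham only without its mouse J17 (-0.20, adjusted p 0.033).

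Flt3l (chromosome 7, 45131183 to 45136490, minus strand), the FLT3 ligand gene, had a mean of 5.35 TPM. The sham mice had 4.01, 4.26, 4.45 and 3.97 TPM, and the vehicle mice 3.81, 3.96, 4.81, 5.43 and 5.93 TPM. The groups overlapped, with 2 vehicle mice below all sham mice and 3 above. The difference was 0.15 (95% CI -0.10 to 0.39, adjusted p 0.301).

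Flt3l was at 7.83, 6.69, 5.82, 7.65 and 6.23 TPM with Anakinra, the highest group of the 5. It was at 5.41, 4.66, 5.91, 5.87 and 4.03 TPM with PLX3397 and at 5.43, 6.56, 4.598, 6.34 and 4.80 TPM with PLX3397+Anakinra. Of the Anakinra mice, 4 lay above every vehicle mouse and 1, J14, within their range. Anakinra was 42.9% higher than vehicle in mean TPM, 0.45 on the log2 scale (95% CI 0.22 to 0.68), with an unadjusted p of 0.000542 that did not pass after adjustment (0.0968). Against sham it did pass (0.59, adjusted p 0.000155), as did the combination (0.33, adjusted p 0.0294). The call for the combination was lost without its mouse J04 (adjusted p 0.0854) or J10 (adjusted p 0.0761) and without sham mouse J07 (adjusted p 0.0658) or J16 (adjusted p 0.0694), while PLX3397 against sham, at 0.25 (adjusted p 0.0939), passed only without PLX3397 mouse J20 (0.32, adjusted p 0.0346). In the order sham, vehicle, PLX3397, PLX3397+Anakinra and Anakinra, no neighbouring pair passed (adjusted p 0.301, 0.667, 0.946 and 0.121). A readthrough gene on the same strand, Gm45713, spans the whole of Flt3l, and how its reads were shared is not given in the sources used here.

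Counted over the set, vehicle against sham had 2 of 7 genes higher, where 26.6% of all genes tested were higher, and 4 of 7 lower, where 27.7% were lower. The median difference of the 7 was -0.25, beside -0.01 over all genes. The other injured groups were compared with the same 4 sham mice, so these counts are not independent of one another. PLX3397 against sham had 2 higher (22.7% of all genes) and 4 lower (22.5%), Anakinra 3 higher (25.1%) and 4 lower (29.2%), and PLX3397+Anakinra 3 higher (20.7%) and 2 lower (18.1%). For vehicle against sham, the 2 of 7 genes that were higher lay near the background and the 4 of 7 that were lower lay above it, with no test on so small a set.

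PLX3397 against vehicle had 1 of 7 genes lower, Csf1r, where 6.66% of all genes were lower, and 0 higher, where 3.23% were. Anakinra against vehicle had 0 of 7 in either direction, where 0.0695% of all genes were higher and 0.0463% lower, and Flt3l was its only member at an unadjusted p below 0.05. PLX3397+Anakinra had 2 lower (9.6% of all genes) and 1 higher (7.88%). These comparisons share the 5 vehicle mice. The medians of the set were 0.03, -0.04 and 0.10, beside 0.01, -0.02 and 0.01 over all genes.

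**Figure D3:**
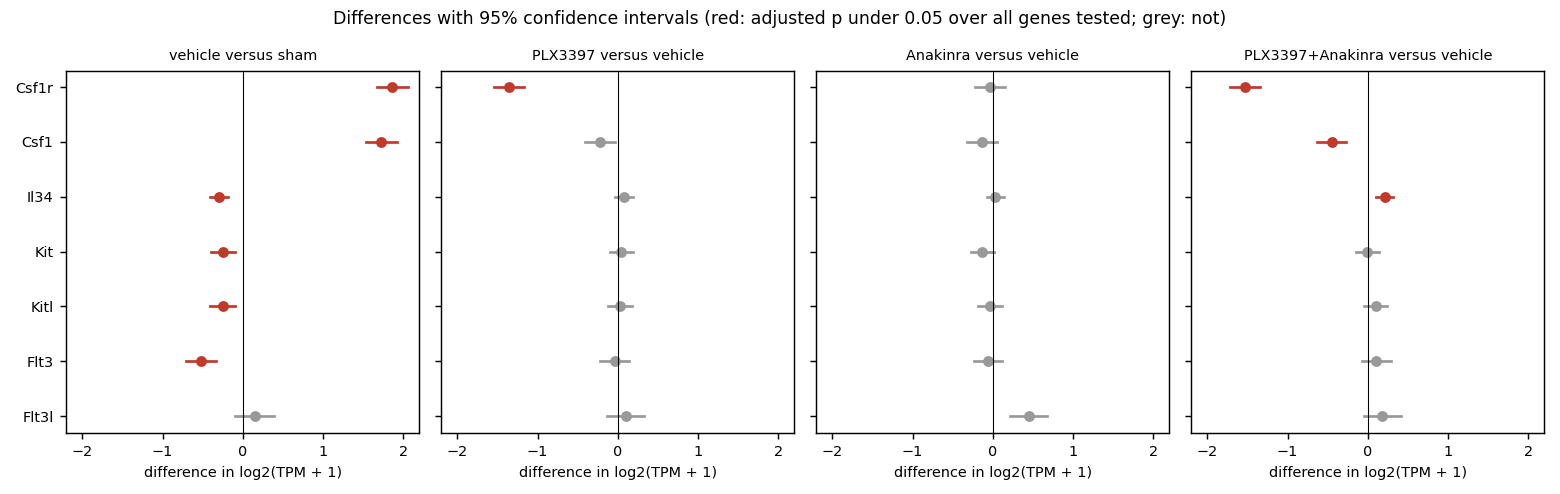
Difference in log2(TPM + 1) (x axis) with its 95% confidence interval for each gene (y axis) in 4 comparisons from the limma model, in red where the adjusted p was below 0.05. Csf1r is at 1.86, -1.35, -0.03 and -1.53 from left to right, and Kit, Kitl and Flt3 have intervals that include 0 in the 3 drug panels.

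Between the drug groups, PLX3397+Anakinra against PLX3397 had 0 of 7 genes called, where 0.00579% of all genes were higher and 0.145% lower. At an unadjusted p below 0.05, Csf1 was lower (-0.23) and Il34 higher (0.13), with adjusted p of 0.555 and 0.563. PLX3397+Anakinra against Anakinra had Csf1r (-1.50, adjusted p 4.86e-11) and Csf1 (-0.32, adjusted p 0.0185) lower, where 8.1% of all genes were lower, and Il34 higher (0.18, adjusted p 0.0237), where 4.67% were. Without Anakinra mouse J05 only Csf1r passed, with adjusted p of 0.0702 for Csf1 and 0.0527 for Il34. The Csf1 call was also lost without PLX3397+Anakinra mouse J17 (adjusted p 0.0594), and the Il34 call without Anakinra mouse J06 (adjusted p 0.0603), without PLX3397+Anakinra mouse J09 (adjusted p 0.0577) and with median ratio scaling (adjusted p 0.0505).

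PLX3397 against Anakinra had 1 of 7 lower, Csf1r (-1.32, adjusted p 5.62e-10), where 5.41% of all genes were lower, and 0 higher, where 1.29% were. Flt3l was at -0.35 (adjusted p 0.064) and passed without PLX3397 mouse J12 (adjusted p 0.0499) or Anakinra mouse J14 (adjusted p 0.0437), and Kit, at 0.17 (adjusted p 0.141), passed without Anakinra mouse J22 (adjusted p 0.042). The interaction, which asks whether the effect of Anakinra differs with and without PLX3397, was called by limma for 0 of 7 genes and for 0% of all genes, with 1395 genes at an unadjusted p below 0.05. Its estimates were -0.15 for Csf1r (95% CI -0.41 to 0.12), -0.10 for Csf1 (95% CI -0.37 to 0.16) and 0.10 for Il34 (95% CI -0.05 to 0.25). The only member at an unadjusted p below 0.05 was Flt3l (-0.36, 95% CI -0.69 to -0.04, adjusted p 0.575).

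The balance of ligand and receptor transcripts is given as a description, with no test. In sham mice the summed TPM of Csf1 and Il34 was 1.29 ± 0.03 per TPM of Csf1r (SD, n = 4). It was 0.479 ± 0.032 with vehicle and 0.469 ± 0.013 with Anakinra (SD, n = 5 each), the receptor having risen by a larger factor than the sum of its ligands. With PLX3397 it was 1.19 ± 0.24 and with PLX3397+Anakinra 1.29 ± 0.07 (SD, n = 5 each). The PLX3397 values, 0.855 to 1.48, and the combination values, 1.23 to 1.40, all lay above the highest vehicle value of 0.518 and around the sham range of 1.27 to 1.33.

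The sum of both ligands itself was higher after injury, at 79.0 ± 1.4 TPM in sham and 108 ± 7 with vehicle. It differed less among the injured groups, with 102 ± 4 for PLX3397, 104 ± 6 for Anakinra and 100.0 ± 3.0 for PLX3397+Anakinra. The makeup of the sum changed with injury as well. Csf1 was 20.7% ± 1.2 of the sum in sham (SD, n = 4) and 52.7% ± 5.6 with vehicle, 47.5% ± 4.1 with PLX3397, 49.8% ± 2.7 with Anakinra and 41.1% ± 2.5 with PLX3397+Anakinra (SD, n = 5 each). Put the other way, the Il34 TPM per Csf1 TPM was 3.84 in sham and 0.917 with vehicle. The ratio with PLX3397+Anakinra, 1.24 to 1.57, lay above all vehicle mice at 0.719 to 1.15. The Csf1 TPM per Csf1r TPM was 0.267 ± 0.011 in sham and 0.251 ± 0.020 with vehicle, and 0.559 ± 0.092 with PLX3397 and 0.531 ± 0.017 with PLX3397+Anakinra.

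**Figure D4:**
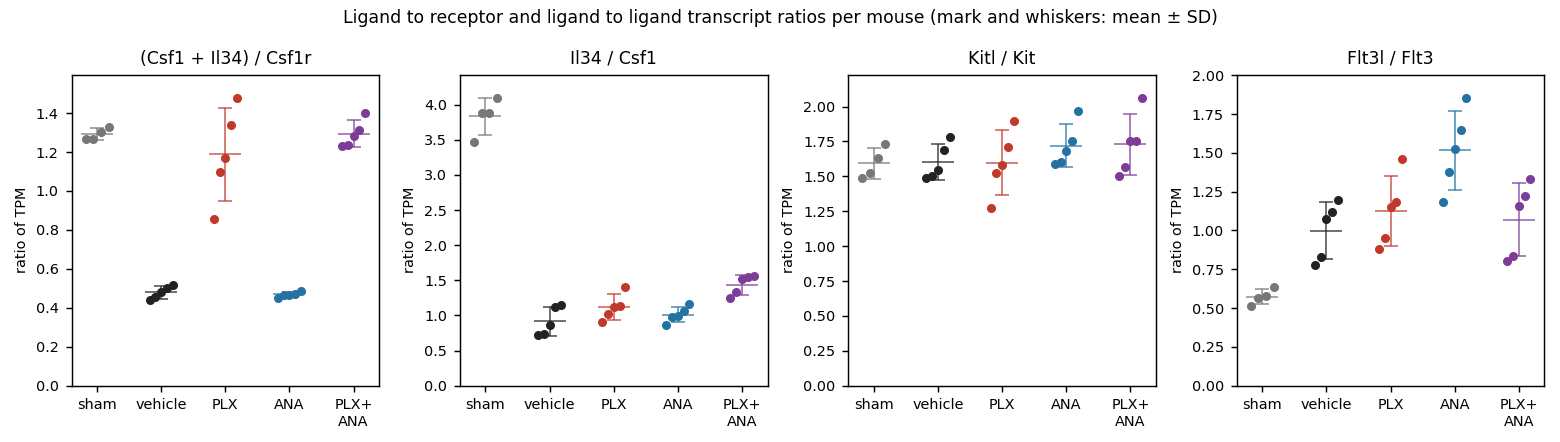
Ratios of TPM (y axis, starting at 0) in each mouse by group (x axis; PLX is PLX3397 and ANA is Anakinra), with the group mean and SD (n = 4 sham, n = 5 in each other group). The CSF1R ligand to receptor ratio is near 1.29 in sham and near 0.479 with vehicle, and the Kitl to Kit ratio stays between 1.27 and 2.06 in all mice.

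The Kitl to Kit ratio varied little between groups. Kitl was at 1.59 ± 0.11 TPM per TPM of Kit in sham, 1.60 ± 0.13 with vehicle, 1.60 ± 0.23 with PLX3397, 1.72 ± 0.15 with Anakinra and 1.73 ± 0.22 with PLX3397+Anakinra. The Flt3l to Flt3 ratio differed more, at 0.574 ± 0.0499 in sham and 0.999 ± 0.185 with vehicle, with 1.13 ± 0.23 for PLX3397, 1.52 ± 0.26 for Anakinra and 1.07 ± 0.24 for PLX3397+Anakinra. Every injured mouse, at 0.778 or more, exceeded the highest sham mouse at 0.635, with Flt3 called lower than sham in all 4 injured groups and Flt3l called higher in 2 of them.

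Partners and regulators of CSF1R formed a list of 22 genes, of which 21 were tested. In vehicle against sham 14 were higher and 2 lower (26.6% and 27.7% of all genes tested), with a median of 0.68 beside -0.01 over all genes. Tyrobp, the adaptor of TREM2 through which CSF1R also signals, and Trem2 itself, a lipid receptor of microglia, had the highest levels and the largest differences, 3.43 and 3.10 (adjusted p 1.8e-16 and 5.86e-16). With PLX3397 0 of 21 were higher and 9 lower (3.23% and 6.66% of all genes, median -0.27), led by Inpp5d (-1.26, adjusted p 5.45e-09) and Ptpn6 (-1.13, adjusted p 1.65e-06), phosphatases that restrain receptor signalling in blood cells. With PLX3397+Anakinra 2 were higher and 10 lower (7.88% and 9.6% of all genes, median -0.28), with Ptpn6 at -1.45 and Inpp5d at -1.36. Cbl, the ubiquitin ligase that removes CSF1R from the cell surface, was at 0.14 in vehicle against sham (adjusted p 0.126).

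Transcription factors of the Csf1r gene and of myeloid cells were higher in vehicle than in sham for 11 of 12 genes (26.6% of all genes, median 1.15), with Irf8 at 2.50 and Spi1, which encodes PU.1, at 2.41 (adjusted p 8.57e-14 and 1.78e-13). Ets2 was the exception at -0.28 (adjusted p 0.000948). With PLX3397 8 of 12 were lower (6.66% of all genes, median -0.56) and with PLX3397+Anakinra 9 of 12 (9.6% of all genes, median -0.70). Spi1 had mean levels of 5.42 TPM in sham, 33.1 with vehicle, 13.8 with PLX3397 and 10.8 with PLX3397+Anakinra, and the differences from vehicle were -1.22 and -1.52 (adjusted p 2.4e-07 and 2.73e-09). Cebpb was at -0.22 and -0.17 (adjusted p 0.321 and 0.38).

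The kinases and adaptors downstream of all 3 receptors were less uniform. Of 32 genes, 15 were higher and 8 lower in vehicle than in sham (median 0.12), beside 26.6% and 27.7% of all genes, so that the count of lower genes was near the background. Genes best known from blood cells had the largest differences, with the exchange factor Vav1 at 2.41 and the Src-family kinase Lyn at 2.31, whereas the broadly expressed kinase Mapk3 was at 0.27 (adjusted p 5.79e-06). With PLX3397 8 of 32 were lower and 0 higher (6.66% and 3.23% of all genes, median -0.08), led by Vav1 (-1.15, adjusted p 1.49e-08) and Pik3cg (-1.08, adjusted p 1.6e-07). With PLX3397+Anakinra 10 were lower and 2 higher (9.6% and 7.88% of all genes, median -0.08), with Vav1 at -1.51. Mapk3 was at 0.06 and 0.03 in these comparisons (adjusted p 0.448 and 0.665).

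The PDGF receptors and ligands, whose receptors share the kinase class, showed smaller differences. In vehicle against sham 4 of 6 were higher and 1 lower (26.6% and 27.7% of all genes), with Pdgfd at 0.63, Pdgfrb at 0.42 and Pdgfra at 0.32, and Pdgfa at -0.19. Pdgfra, the receptor of oligodendrocyte progenitors, was the 1 gene of the 6 that passed with PLX3397 (-0.22, adjusted p 0.0214; 6.66% of all genes were lower) and with PLX3397+Anakinra (-0.31, adjusted p 0.000611; 9.6% were lower). Its mean was 23.2 TPM in sham, 29.3 with vehicle, 25.0 with PLX3397 and 23.3 with PLX3397+Anakinra.

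Of the GM-CSF and G-CSF system, which drives other myeloid cells, the 4 receptor genes tested rose in vehicle against sham, as did 26.6% of all genes, Csf2rb by 2.79, Csf2rb2 by 2.28, Csf3r by 2.26 and Csf2ra by 0.49. All 4 fell with PLX3397 (median -0.79; 6.66% of all genes) and with PLX3397+Anakinra (median -1.24; 9.6% of all genes), Csf3r by 1.09 and 1.33 and Csf2rb by 0.84 and 1.36. Csf2rb and Csf2rb2 are close copies, so reads may have been split between them. Their ligand genes Csf2 and Csf3 stayed at or below 0.380 TPM in all libraries and were not tested. Anakinra against vehicle had 0 higher and 0 lower in the lists of CSF1R partners, transcription factors, PDGF genes and the GM-CSF and G-CSF system, and 0 higher and 1 lower among the 32 downstream genes.

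The genes whose levels followed each member most closely were taken by Pearson's r of log2(TPM + 1) over 24 libraries, which share the group differences and so are no independent points. For Csf1r they were Vsir (0.995), Cx3cr1 (0.994) and Slco2b1 (0.992), and over the 20 injured mice Itgam (0.994), Vsir (0.993) and Cyth4 (0.993). For Csf1 they were Ggta1 (0.990), Spp1 (0.988) and Cd9 (0.985), and over the injured mice C4b (0.922), Ggta1 (0.921) and Slc44a2 (0.915). Cx3cr1 and Itgam are on the list of microglia markers used above.

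For Il34 the closest were Ajap1 (0.926), Mau2 (0.924) and Pdxp (0.922), and over the injured mice Ajap1 (0.910), Nmnat2 (0.901) and Vegfa (0.898). The other members had weaker likenesses, for Kit led by Crim1 (0.868), Fam20b (0.859) and Plxna4 (0.856), for Kitl by Rab3gap2 (0.869), Sbno1 (0.868) and Gcc2 (0.866), for Flt3 by Arhgap39 (0.883), Orai2 (0.879) and Mical2 (0.878), and for Flt3l by Sumf2 (0.799), Ube2t (0.791) and Tnip2 (0.789). Over the 20 injured mice the first gene was Gm35365 for Kit (0.819), Rlim for Kitl (0.826), Tmem150b for Flt3 (0.743) and Sumf2 again for Flt3l (0.824).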

How the data were processed

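Expression was measured by paired-end sequencing of poly(A)-selected RNA, 1 library per mouse. The authors mapped the reads in CLC Genomics Workbench to mm10 (GRCm38 in the submitters' processing notes) and deposited values named TPM. That unit is scaled by gene length and library total, but the methods say that CLC calls it CPM, and the scaling by length was not checked. The full-precision table of 36333 genes was used. A second deposited table with values rounded to 3 decimals served as an alternative. Another table, holding a filtered subset with p-values and F values of the authors' own tests, was not used. The tables hold no counts, so the depth is unknown, and precision rests on the spread between mice. Coordinates and upstream sequences are from RefSeq, GRCm38.p6 (5 of 7 members had an upstream sequence, not Csf1r and Il34), and overlaps from GENCODE for GRCm38.

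A gene was tested where its mean over the libraries reached 0.5 TPM (17267 genes), with limma 3.58.1 (R 4.3.3) and values as log2(TPM + 1). The model had 1 mean per group, all 24 libraries and a variance trend, and p-values were adjusted by the Benjamini-Hochberg method over all genes tested. Samples were grouped by their labels, and none was left out. Since the scale adds 1 TPM, fold changes of Flt3 and Flt3l are understated. The 10 pairwise comparisons and the interaction were made. TPM is relative, so a rise of some genes lowers the share of others.

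The members and gene lists were chosen with earlier results of these data known. From each list the text names, by rule, the 2 genes with the highest mean TPM and the 2 with the largest change in vehicle against sham and in PLX3397 and PLX3397+Anakinra against vehicle, with some not reported here, and for each member the 3 genes with the largest r. Cbl, Cebpb, the members of short lists and the PDGF genes outside the rule were named after their values were seen. The text gives the marker lists that bear on a member. Alternatives were a pseudocount of 0.1, no filter, a mean of at least 5 TPM, median ratio scaling, only the compared groups, the rounded table, the study's criteria (unadjusted p below 0.05, a ratio above 2 and a difference above 4 TPM), no variance trend, leaving out each mouse and a block for shared animal numbers. The calculations were tested on simulated data.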

Additional observations from a re-analysis of the deposited data

Results flagged for a closer look

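Of the 35 sets formed by 7 genes and 5 groups, 1 held a mouse far from the others of its group. Kit was at 23.3 TPM in PLX3397+Anakinra mouse J10, while the other 4 mice had 19.7 to 20.7 TPM, and the gap was 0.721 of the group's range against a limit of 0.71. Chance alone marks about 1 in 20 such sets. No member's interaction of PLX3397 and Anakinra passed the test.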

How the results depend on the processing

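Directions of the calls held in all alternatives run, and no call reversed. The counts of members called in vehicle, PLX3397, Anakinra and PLX3397+Anakinra against sham, 6, 6, 7 and 5, became 2, 1, 2 and 1 under the study's criteria, and the count of 3 in PLX3397+Anakinra against vehicle and against Anakinra became 1 each. These criteria change the p, the ratio and the difference in TPM together. Leaving out 1 mouse moved the count in PLX3397 against vehicle between 1 and 2, in PLX3397+Anakinra against Anakinra between 1 and 3, and in PLX3397 against Anakinra between 1 and 2. The call of Flt3l in PLX3397+Anakinra against sham was lost without the filter (adjusted p 0.0572), where more genes were tested.

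With a replicate block for animal numbers, of which 3 occur in both the vehicle and the PLX3397 group, PLX3397 against vehicle had 2 members called, Csf1r and Csf1 (-0.32, adjusted p 0.0392), and 703 of all genes instead of 1707. Deviations of same-numbered mice correlated at 0.17, -0.13 and -0.07, and 3 such values cannot decide whether the numbers pair the mice. The fit had 2 residual degrees of freedom.

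Over all genes, the study's criteria gave 909, 632, 914 and 500 against sham instead of 9378, 7801, 9392 and 6702, then 176, 31 and 285 against vehicle for PLX3397, Anakinra and PLX3397+Anakinra instead of 1707, 20 and 3018, 17 for PLX3397+Anakinra against PLX3397 instead of 26, and 271 and 129 against Anakinra for PLX3397+Anakinra and PLX3397 instead of 2206 and 1156. With only the compared groups in the model, PLX3397 against vehicle had 998. The small count in Anakinra against vehicle became 2 to 11 under 5 other settings and 1 to 66 without single mice. That of 26 became 9 to 17 under 3 other settings and 11 to 77 without single mice, and the interaction count of 0 became 9 without PLX3397 mouse J01. Of 2464 single-gene values under alternatives, 38 lost and 7 gained a call. Median ratio scaling moved the all-gene median by less than 0.1. The unknown depth limits what can be said of Flt3 and Flt3l, the genes with the lowest TPM.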
